A study of Mus musculus with 12 samples.

Results

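The genes described here are the olfactory receptor genes that carried reads in medullary thymic epithelial cells. A gene was taken if its symbol in the GENCODE M21 annotation of the mouse genome build GRCm38 was Olfr followed by a number and if at least 50 reads were assigned to it over all 12 libraries together. The set was thus chosen by reads summed over both cell types and all genotypes. This gave 319 genes of 1405 olfactory receptor genes in the tables, or 22.7%, among 50600 gene identifiers in all. The read totals that chose them are a description here and support no comparison. Of the 1405 genes, 1186 had at least 1 read and 219 had none. The minimum cut a continuous range: 47 genes had 40 to 49 reads and were left out, and 39 genes with 50 to 59 reads were taken. Just inside were Olfr394, Olfr1428 and Olfr530 with 50 reads each, and just outside were Olfr1025-ps1, Olfr995 and Olfr273 with 49 reads each. The annotation lists 292 of the 319 as protein coding and 27 as pseudogenes of several kinds.

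Olfactory receptors are G protein-coupled receptors of the nose, and they form the largest gene family of the mouse genome. Their genes lie in clusters on most chromosomes, and a mature olfactory neuron expresses 1 of them from 1 allele. An odorant that binds the receptor activates a G protein and adenylyl cyclase, and the cyclic AMP formed opens a cation channel and then a chloride channel. Medullary thymic epithelial cells (mTECs) display antigens of other tissues to developing T cells, and Aire, a transcriptional regulator of the mature cells among them, is known for switching on genes of restricted tissue expression.

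RNA sequencing of polyadenylated RNA was deposited for mTECs of mice 6 to 8 weeks old, sorted by surface MHC class II into mTEC hi (high MHC class II) and mTEC lo (low MHC class II), with 6 libraries each. All mice carry the strain name B6.B6CB-Psmb11tm1Smta. In each cell type 2 libraries are Psmb11-deficient (Psmb11-/-), 2 are WT (Psmb11+/+), and 2 have labels that conflict, since their title and their source name and strain give different genotypes. Psmb11 encodes a proteasome subunit known from cortical thymic epithelial cells, and cortical cells were not analysed here. The labels do not say how many animals a library holds or whether libraries come from separate animals. The p-values therefore rest on the spread among these libraries, and that spread may be technical only.

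Total gene reads ranged from 38791960 to 86793594 per library. Psmb11 stood at 0.836 to 1.66 CPM (read counts scaled to library size by TMM) in the 4 deficient libraries, against 7.45 to 12.2 CPM in the 4 WT libraries. Where labels conflict it was 7.09 and 8.04 CPM under a WT title, and 1.11 and 1.25 CPM under a knockout title. These 4 libraries are used to compare the cell types but not the genotypes. Aire, a defining marker of mature mTECs, averaged 1956 ± 183 CPM in mTEC hi, against 17.7 ± 5.21 CPM in mTEC lo (mean ± SD of 6 libraries each), and all 8 mTEC markers on the list were detected in both cell types.

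The receptors share a short stretch at the inner end of the transmembrane helix that precedes the second inner loop, where an aspartate-arginine-tyrosine triplet contacts the G protein. Coding sequences could be read for 294 of the 319 genes, with a median open reading frame of 945 bases, and 216 of them held a match to the stretch in its usual form. Among all olfactory receptor genes 894 of 1143 with a reading frame did. The coding stretches of 4 receptors described below are shown, 30 bases each from the GENCODE M21 transcripts and 5′ to 3′, with the codons of the triplet in capitals, to show the kind of message that was counted.
Olfr78: atggcctttGACCGGTACgtggctatctgc
Olfr558: atggcctttGACCGCTATgtggccatttgc
Olfr1393: atggcttttGACCGCTATgttgctgtgtgt
Olfr328: atgtcttatGACCGCTATgtagccatctgt

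Such likeness matters for counting, because a read that lies in a shared stretch can belong to several genes. Words of 50 bases were therefore compared between all annotated transcripts. Of the 319 genes, 71 shared no such word with another gene, 80 shared over 10% of their words, and 1 (Olfr98) shared more than 50%. The exons of 18 overlapped an exon of another gene. The libraries do not keep the strand, so reads of a gene and of a partner on the opposite strand cannot be told apart.

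mTEC hi libraries contained reads from many more olfactory receptor genes than mTEC lo libraries. After every library was thinned to 38791960 reads, the Psmb11-deficient mTEC hi libraries held 357 and 319 receptor genes with at least 5 reads, the WT ones 365 and 318, and those with conflicting labels 382 and 327. In mTEC lo the counts were 43 and 38 in the Psmb11-deficient libraries, 38 and 38 in the WT libraries, and 40 and 37 in those with conflicting labels. The means were 345 ± 27.0 for mTEC hi, against 39.0 ± 2.19 for mTEC lo (SD, n = 6 each), and the groups did not overlap. Over all genes the same count was 26746 to 27296 in mTEC hi and 20812 to 21419 in mTEC lo.

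The summed level of the 319 receptors was 205 ± 16.9 CPM in mTEC hi, against 63.5 ± 10.5 CPM in mTEC lo (mean ± SD of 6 libraries each), with ranges of 186 to 234 CPM and 50.1 to 77.0 CPM that did not overlap. In mTEC lo few receptors made up this sum: the 10 highest in a library held 77.4% to 80.3% of it, against 34.4% to 37.8% in mTEC hi. The same 3 genes, Olfr461, Olfr1372-ps1 and Olfr753-ps1, led in both cell types and held 21.7% of the receptor reads in mTEC hi and 58.9% in mTEC lo. Olfr461 alone held 4.25% in mTEC hi and 36.1% in mTEC lo. As these are bulk samples, more cells that express a receptor and more RNA per cell cannot be told apart.

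**Figure D1:**
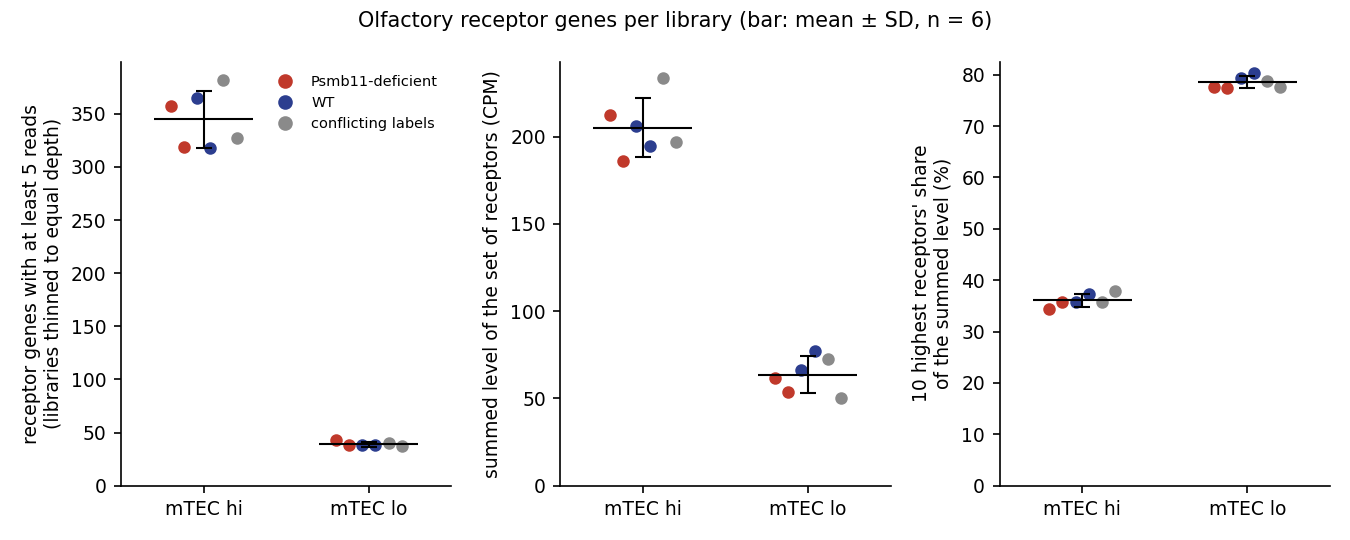
The left panel shows the number of olfactory receptor genes with at least 5 reads after thinning, the middle panel the summed CPM of the 319 receptors, and the right panel the share of that sum held by the 10 highest receptors. Each point is a library, coloured by genotype label, and lines are the mean ± SD of 6; mTEC hi lies above mTEC lo in the first 2 panels and below it in the last.

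Single receptors were rare messages. In mTEC hi 30 of the 319 had a mean of at least 1 TPM (transcript abundance divided by gene length), 265 had at least 0.1 TPM, and the median was 0.243 TPM. In mTEC lo 8 had at least 1 TPM and 38 had at least 0.1 TPM. All these counts include Olfr77, with a mean of 4.08 TPM in mTEC hi and 4.44 TPM in mTEC lo. It had no read in mTEC lo, and its TPM rests on an estimate by the authors that is described below. Every receptor had a read in mTEC hi, and 303 had a read in each of the 6 mTEC hi libraries. In mTEC lo 131 had no read at all and 51 had a read in each of the 6 libraries.

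Which receptors were read was similar between libraries of 1 cell type. The rank correlation of CPM over the 319 genes was 0.634 to 0.752 between mTEC hi libraries and 0.647 to 0.747 between mTEC lo libraries. Between the cell types it was 0.175 to 0.295. These are correlations across genes, which are not independent replicates, and gene length and mappability are shared by all libraries. In a mTEC lo library only 87 to 117 of the 319 genes had a read. Most values there thus tie at 0, and the correlations that involve mTEC lo depend on these ties. The spread that edgeR estimated for the receptors was about that of other genes of their level. In the middle of their range of abundance the median coefficient of biological variation was 0.388 for 136 receptors and 0.395 for 3908 other genes. This estimate is drawn toward a trend shared by genes of like level. The likeness is thus partly built in and does not decide how much the receptors themselves vary.

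In the comparison of mTEC hi with mTEC lo, edgeR's quasi-likelihood test was fitted to the whole table, and 274 of the 319 receptors passed the filter on low counts. Of these, 253 were higher in mTEC hi at an adjusted p below 0.05, 2 were lower and 19 were not called. Among all 26372 genes tested 81.2% were called in either direction, 45.3% higher and 35.9% lower. The median log2 fold change was 5.80 over the 274 receptors, or 4.73 with the receptors that had no mTEC lo read set to a lower bound against 3 reads over the group, and 0.16 over all genes. The choice of the receptors enters these counts: 274 of the 319 reached 50 reads through mTEC hi only, and a gene that did so had to be higher there. The values are therefore a description of the set.

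The same reads were also compared library by library. All 6 mTEC hi libraries lay above all 6 mTEC lo libraries for 227 of the 274 tested receptors. All 6 lay below for 1 (Olfr461), and the groups overlapped for 46. Among all tested genes mTEC hi lay wholly above for 38.2% and wholly below for 28.9%. Over all 319 receptors, 45 of them not tested, the counts were 253 above, 1 below and 65 with overlap. These 253 are not the same set as the 253 called higher. The choice of the receptors by reads enters these counts too.

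A group of 35 receptors reached 50 reads by the mTEC lo libraries alone. Of the 35, 19 were called higher in mTEC hi, 2 lower and 14 were not called, with a median log2 fold change of 0.71. Among all genes tested 45.3% were called higher and 35.9% lower. The 6 mTEC hi libraries lay above the 6 mTEC lo libraries for 16 of the 35, below for 1, and overlapped for 18. For all genes tested the shares were 38.2% above and 28.9% below. The 14 receptors that were not called had log2 fold changes between -0.60 and 0.99. This group was in turn chosen for its mTEC lo reads, so its smaller differences are also a description.

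**Figure D2:**
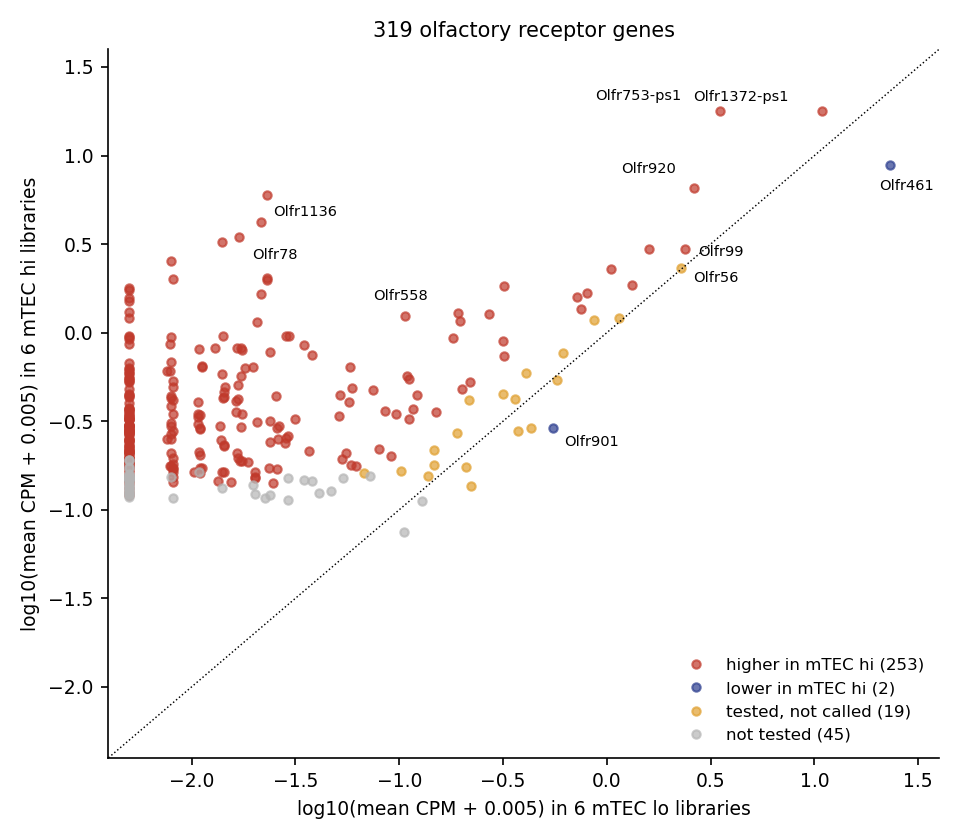
Each of the 319 receptors is a point, with its mean level over 6 mTEC lo libraries on the horizontal axis and over 6 mTEC hi libraries on the vertical axis, both as log10 of CPM plus 0.005; the dotted line marks equal levels. Most points lie above the line, a column at the left edge holds the receptors without a mTEC lo read, and the 2 blue points are Olfr461 and Olfr901.

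The receptor with the highest mean TPM, Olfr461, was lower in mTEC hi. It lies on chromosome 6 (40542171 to 40555050, minus strand) and has 2 exon blocks. Its lowest, median and highest values were 6.12, 9.28 and 10.1 CPM in mTEC hi, against 14.4, 23.4 and 32.2 CPM in mTEC lo. The groups did not overlap, and the log2 fold change was -1.38 ± 0.146 (SE; edgeR adjusted p = 1.05e-07). The protein-coding gene with most reads within 50000 bases, outside the receptor family, is Tas2r108. This bitter taste receptor gene lies 47630 bases away and averaged 3.69 ± 0.744 CPM in mTEC hi, against 17.3 ± 3.22 CPM in mTEC lo (log2 fold change -2.24). Of all genes tested 35.9% were called lower in mTEC hi, and so were all 6 tuft cell markers on the list. These markers include the taste channel Trpm5 and the taste G protein subunit Gnat3. Their summed level was 259 to 386 CPM in mTEC hi, against 1255 to 1923 CPM in mTEC lo, and their part in the level of Olfr461 was not tested. Olfr460, the other receptor gene of this small cluster, had 448 reads in mTEC hi and 383 reads in mTEC lo and was not called (log2 fold change 0.11, edgeR adjusted p = 0.706). Its most read protein-coding neighbour outside the receptor family, the taste receptor gene Tas2r138, lies 37972 bases away and changed by -3.46 on the log2 scale. Olfr457, also on chromosome 6, changed by 0.11, and the taste receptor gene Tas2r126, 32551 bases from it, changed by -1.98.

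Olfr901, on chromosome 9, was the other receptor called lower in mTEC hi. It is named because only 2 were lower, after its values were seen. It had 0.219, 0.291 and 0.349 CPM as lowest, median and highest in mTEC hi, against 0.215, 0.555 and 0.810 CPM in mTEC lo. The groups overlapped, since the WT library 2 of mTEC lo held the lowest value of all 12. The log2 fold change was -0.94 ± 0.349 (SE; edgeR adjusted p = 0.0196). The call was lost without mTEC lo conflicting library 1, deficient library 2 or WT library 3, with adjusted p of 0.0761, 0.0691 and 0.0725, and with library size alone as the scaling (0.112).

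The next highest receptors were annotated as pseudogenes. Olfr1372-ps1, on chromosome 11, had 15.8, 17.8 and 20.7 CPM as lowest, median and highest in mTEC hi, against 6.53, 11.6 and 13.4 CPM in mTEC lo. The groups did not overlap, and the log2 fold change was 0.71 ± 0.111 (SE; edgeR adjusted p = 1.46e-05). Olfr753-ps1, on chromosome 17, had 15.9, 17.9 and 20.0 CPM in mTEC hi, against 2.99, 3.57 and 3.88 CPM in mTEC lo. It rose by 2.35 on the log2 scale, again without overlap, and lies 8162 bases from Ubd, the gene of a ubiquitin-like modifier in the MHC region, which rose by 3.33. Of the 24 pseudogenes tested 21 were called higher, with a median log2 fold change of 3.93. Among all genes tested 45.3% were called higher, and the choice by reads enters the count of pseudogenes.

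Many of the receptors read in both cell types lie in the MHC-linked cluster on chromosome 17. It spans 37083871 to 38336643 and holds 58 receptor genes, of which 31 belong to the set. The cluster gave 43.2 ± 3.63 CPM in mTEC hi, against 14.1 ± 1.48 CPM in mTEC lo (again with SD over 6 libraries). This was the highest sum of any cluster in mTEC hi, whereas in mTEC lo the pair of Olfr461 and Olfr460 on chromosome 6 gave more, with 24.2 ± 6.79 CPM. Of the 35 receptors that reached 50 reads in mTEC lo, 16 lie in it. Of its 31 members 24 were called higher and none lower, with a median log2 fold change of 1.61. Among all genes tested 45.3% were called higher and 35.9% lower, and the choice by reads enters the count of these receptors. Genes of MHC class I proteins lie between these receptors. H2-M3, 4559 bases from Olfr99, had a log2 fold change of 0.03.

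Olfr99 and Olfr98, neighbours in that cluster, were near the threshold. Olfr99 had 2.57, 2.84 and 3.55 CPM as lowest, median and highest in mTEC hi, against 2.06, 2.41 and 2.73 CPM in mTEC lo. The groups overlapped, and its log2 fold change of 0.32 (edgeR adjusted p = 0.0382) lost its call without any one of 7 libraries: mTEC hi deficient 1, WT 3 and conflicting 3, and mTEC lo deficient 1, WT 2, WT 3 and conflicting 3, with adjusted p from 0.0513 to 0.108. Olfr98 had a log2 fold change of 0.31 and was not called (edgeR adjusted p = 0.203). It shares 60.7% of its 50-base words with other genes, and its exon overlaps the predicted gene Gm20429 by 354 bases, so its count is uncertain. Olfr760-ps1, in the same cluster, had 1.02, 1.27 and 2.04 CPM in mTEC hi, against 0.458, 0.738 and 1.004 CPM in mTEC lo. These groups did not overlap (log2 fold change 0.89, edgeR adjusted p = 0.0011).

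Olfr56, on chromosome 11, was not called between the cell types. It had 1.84, 2.44 and 2.63 CPM as lowest, median and highest in mTEC hi, against 1.70, 2.37 and 2.62 CPM in mTEC lo. The groups overlapped and the log2 fold change was 0.03 ± 0.155 (SE; edgeR adjusted p = 0.874). Its exons overlap those of Ifi47, an interferon-inducible GTPase gene, by 111 bases. Ifi47 was lower in mTEC hi, with a log2 fold change of -1.06.

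Olfr1136, a receptor of the large cluster on chromosome 2, is an example of the larger group read almost only in mTEC hi. It had 3.63, 4.14 and 5.38 CPM as lowest, median and highest in mTEC hi. In mTEC lo 3 libraries had no read and the others had 0.0179 to 0.0474 CPM, 6 reads in all. The log2 fold change was 7.76 ± 0.337 (SE; edgeR adjusted p = 4.23e-13).

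The 5 largest rises were those of Olfr328, Olfr43, Olfr330, Olfr1349 and Olfr324, none of which had a read in any mTEC lo library. Olfr328 had 1.44, 1.69 and 2.19 CPM as lowest, median and highest in mTEC hi, and Olfr330 had 0.856, 1.61 and 2.12 CPM. Against 3 reads over the 6 mTEC lo libraries, mTEC hi held at least 209-fold more of Olfr328, at least 193-fold more of Olfr43, at least 177-fold more of Olfr1349, at least 170-fold more of Olfr330 and at least 144-fold more of Olfr324. Olfr43 shares 31.6% of its words with other genes, 30.2% with Olfr403, and its count is uncertain to that extent. Olfr328 shares 20.0% and Olfr330 19.1%, so the same limit holds for them. In Olfr324 the Psmb11-deficient library 1 stood apart at 2.26 CPM, with the other 5 mTEC hi libraries at 0.888 to 1.26 CPM.

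Olfr328, Olfr330 and Olfr324 lie together in a cluster on chromosome 11 (58454105 to 58844111) that had the highest share of its genes in the set among the 24 clusters of at least 10 genes, 17 of 23 or 73.9%. The cluster gave 13.6 ± 1.804 CPM in mTEC hi, against 0.0930 ± 0.0645 CPM in mTEC lo (SD over 6 libraries). All 17 were called higher, with a median log2 fold change of 7.15, or 5.45 with those without a mTEC lo read at their bound. Among all genes tested 45.3% were called higher. None of the 17 reached 50 reads in mTEC lo, where the whole cluster had 32 reads. The read minimum thus chose them largely by their mTEC hi reads, and their rise is a description.

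Receptor genes were grouped into clusters wherever the gap to the next receptor gene was at most 500000 bases. This gave 68 clusters, 22 of them of a single gene, and 44 held at least 1 of the 319. The share of genes that reached 50 reads ran from 1.92% to 73.9% among the clusters of at least 10 genes. The largest cluster, on chromosome 2 (85330779 to 90403897), had 37 of 287 genes in the set and gave 21.4 ± 2.78 CPM in mTEC hi, against 1.84 ± 0.192 CPM in mTEC lo. The cluster on chromosome 9 (37708964 to 40190134) had 40 of 123 and gave 22.3 ± 3.09 CPM in mTEC hi, against 4.20 ± 0.754 CPM in mTEC lo. The class I cluster on chromosome 7 (102476579 to 105369355), whose receptors resemble those of fish, had 26 of 156, with 16.0 ± 1.45 CPM in mTEC hi, against 0.570 ± 0.195 CPM in mTEC lo.

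**Figure D3:**
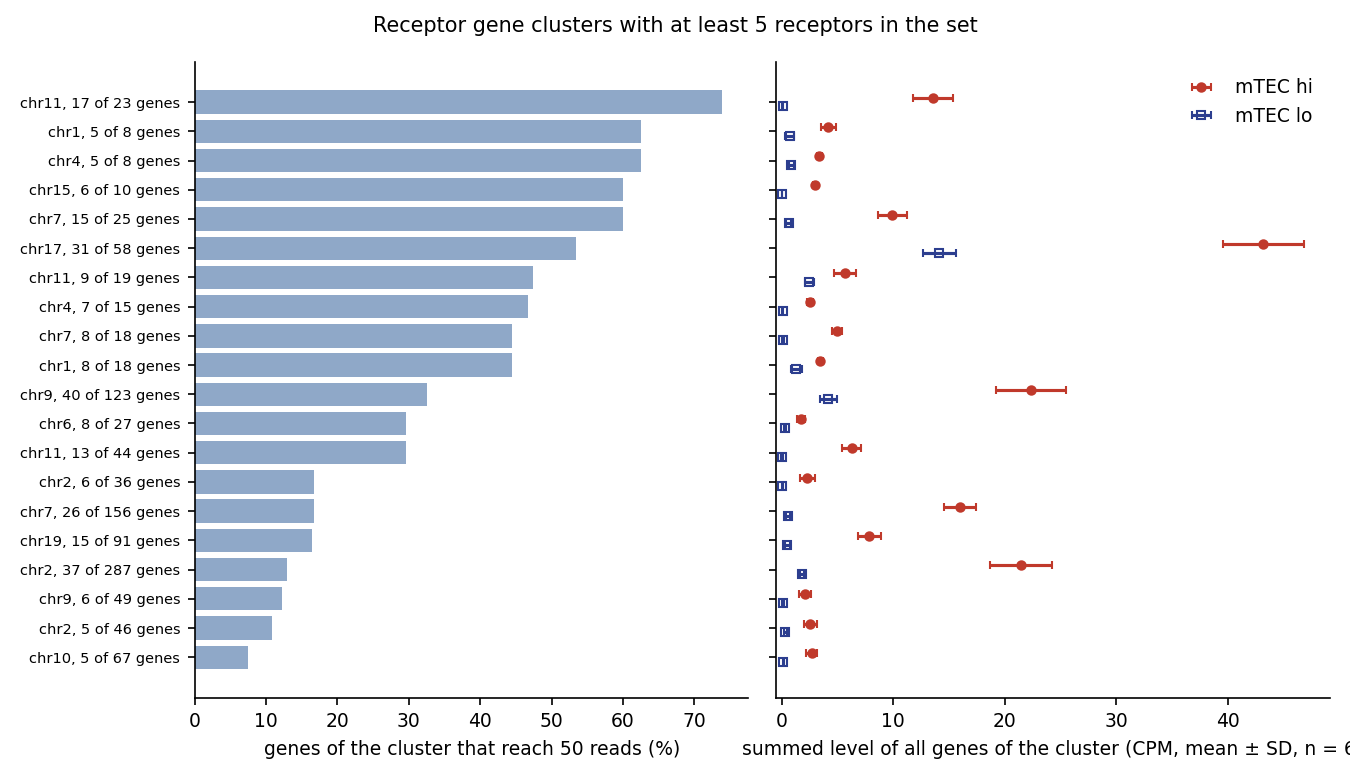
Each row is a receptor gene cluster with at least 5 receptors in the set, labelled by chromosome and by how many of its genes reach 50 reads; bars at the left give that share in percent, and points at the right give the summed CPM of all genes of the cluster in mTEC hi (filled) and mTEC lo (open), mean ± SD of 6 libraries. The cluster on chromosome 11 with 17 of 23 genes leads in share, and of the clusters drawn the one on chromosome 17 leads in level in both cell types.

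The 319 genes differed from the other 1086 receptor genes in their annotation. Their exons covered a median of 3168 bases, against 2318.5 bases in the others, and 90.3% had several exon blocks, against 75.0%. A longer gene collects more reads at the same level, so the read minimum itself favours length. A protein-coding gene outside the receptor family lay within 50000 bases of 132 of the 319 (41.4%), against 208 of the 1086 others (19.2%). The share was 71.4% (25 of 35) for receptors that reached 50 reads in mTEC lo, and 26.7% (35 of 131) for receptors without a mTEC lo read. Over the 113 receptors where both the receptor and the most read such gene were tested, the rank correlation of their log2 fold changes was 0.21. This is a description across genes that share 68 neighbours.

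Several of these neighbours have known roles. Ubd lies 330 bases from Olfr94, which had a log2 fold change of 0.99 and was not called (edgeR adjusted p = 0.0539). Vwa5a lies 8962 bases from Olfr920, a receptor on chromosome 9 with 6.59 ± 1.11 CPM in mTEC hi, against 2.62 ± 0.487 CPM in mTEC lo (SD over 6 libraries). The fold changes were 0.75 for Vwa5a and 1.32 for Olfr920 on the log2 scale.

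Promoter sequences could be matched less often. RefSeq has a promoter for 241 of the 319 receptors, but for only 24 did its start lie within 50 bases of the outer 5′ end of the gene in GENCODE M21. Transcript starts inside the gene were not compared. These 24 promoters, 250 bases before to 50 after the start, had a median GC content of 39.8%, against 52.7% for all 32851 promoters in the table. The word TATAAA was found on either strand in 7 of 24 (29.2%) and in 13.6% of all promoters. The homeodomain word TAATTA, a core bound by factors such as Lhx2 and Emx2, was found in 4 of 24 (16.7%) and in 5.29% of all. A match shows only that the letters are there. The 250 bases before the start are shown for 2 receptors that hold such a word, Olfr301 with TAATTA and Olfr921 with TATAAA, from RefSeq on GRCm38.p6, both on the plus strand, with the word in capitals.
Olfr301, chr7:86403599-86403848: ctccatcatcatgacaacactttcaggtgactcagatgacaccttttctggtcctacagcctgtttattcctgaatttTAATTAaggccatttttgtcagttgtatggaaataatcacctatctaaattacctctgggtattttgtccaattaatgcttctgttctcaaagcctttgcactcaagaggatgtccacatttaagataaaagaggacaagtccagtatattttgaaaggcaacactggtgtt
Olfr921, chr9:38772838-38773087: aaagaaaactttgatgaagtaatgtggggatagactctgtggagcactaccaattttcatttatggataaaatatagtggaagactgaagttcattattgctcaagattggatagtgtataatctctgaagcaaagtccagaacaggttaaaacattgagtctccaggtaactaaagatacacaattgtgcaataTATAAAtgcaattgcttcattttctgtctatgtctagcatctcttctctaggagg
Olfr301 had 355 reads in mTEC hi and none in mTEC lo, and Olfr921 had 286 reads in mTEC hi and 11 reads in mTEC lo.

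A list of 12 receptors with a named ligand or a role outside the nose was also read out, and 4 of them belong to the set. Olfr78, a receptor for short-chain fatty acids that is found in the carotid body and in renal vessels, had 2.46, 3.41 and 4.32 CPM as lowest, median and highest in mTEC hi. In mTEC lo it had 4 reads in 3 libraries and none in the others. The log2 fold change was 7.97 ± 0.357 (SE; edgeR adjusted p = 6.61e-13). Its exons overlap those of its neighbour Olfr560 by 926 bases.

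Olfr558, a receptor for branched short-chain fatty acids and the neighbour of Olfr78, was read at a low level in mTEC lo as well. It had 0.927, 1.18 and 1.88 CPM in mTEC hi, against 0.0359, 0.0904 and 0.189 CPM in mTEC lo, without overlap (log2 fold change 3.57 ± 0.344, SE). Its exons overlap those of Gm45688 by 101 bases. Olfr1393, which in mouse kidney acts on renal glucose handling, had 0.652, 0.857 and 1.65 CPM in mTEC hi, against at most 0.0749 CPM in mTEC lo (log2 fold change 5.21). Olfr160, the acetophenone receptor M72, had 74 reads in mTEC hi and 4 reads in mTEC lo (log2 fold change 3.66).

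The best studied odorant receptors on the list were hardly read. Olfr16, the receptor MOR23, had 26 reads in mTEC hi and 8 reads in mTEC lo. Olfr2, the octanal receptor I7, had 25 reads in mTEC hi and 1 read in mTEC lo. Olfr73, the eugenol receptor, had none in either, and Olfr151, Olfr17 and Olfr1507 had 9, 5 and 3 reads in mTEC hi and none in mTEC lo. Olfr544 had 31 and 18 reads and Olfr1440 had 32 and 0 reads in mTEC hi and mTEC lo. None of these 8 reached 50 reads, and at such counts a difference between the cell types was not tested.

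**Figure D4:**
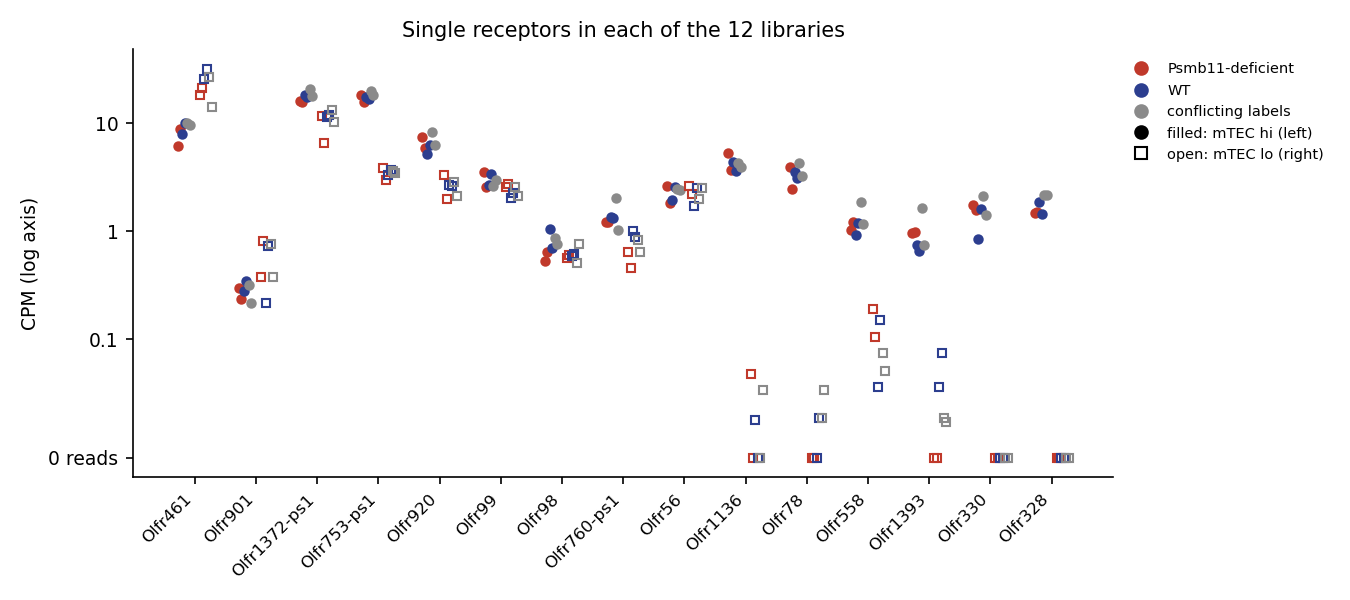
CPM of 15 receptors in each of the 12 libraries on a log axis, with libraries without a read on the line marked 0; filled circles are mTEC hi, open squares mTEC lo, and colours the genotype labels. Olfr461 is the receptor whose mTEC lo libraries all lie above its mTEC hi libraries, Olfr99, Olfr98 and Olfr56 overlap, and Olfr330 and Olfr328 have no mTEC lo read.

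Other chemosensory receptor families were counted in the same way. At the same minimum, 14 of 174 Vmn1r vomeronasal receptor genes (8.05%), 19 of 121 Vmn2r genes (15.7%), 6 of 16 trace amine receptor genes (37.5%) and 39 of 43 taste receptor genes (90.7%) carried reads. The summed level of all 1405 olfactory receptor genes was 233 ± 17.9 CPM in mTEC hi, against 65.1 ± 10.7 CPM in mTEC lo (SD over 6 libraries). The taste receptors went the other way, with 34.3 ± 6.00 CPM in mTEC hi, against 174 ± 35.1 CPM in mTEC lo. Trace amine receptors had 3.25 ± 0.620 CPM in mTEC hi, against 0.0526 ± 0.0351 CPM in mTEC lo.

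Genes with which an olfactory neuron reads out its receptor were partly higher in mTEC hi. Of 14 signal transduction genes 8 were called higher and 6 lower. The shares over all genes tested were 45.3% higher and 35.9% lower. The channel subunits Cngb1 (log2 fold change 5.98), Cnga4 (3.997) and Cnga2 (3.41) of the cyclic AMP-gated channel rose, as did the chloride channel Ano2 (6.90) and the olfactory marker protein Omp (3.05). Cnga2 averaged 22.9 ± 2.29 CPM in mTEC hi, against 2.16 ± 0.369 CPM in mTEC lo. The first steps of the cascade did not rise with them: the G protein subunit Gnal changed by -0.42, the cyclase Adcy3 by -0.32 and Gng13 by -2.05. With library size alone as the scaling, 8 of the 14 were higher, 2 lower and 4 not called, and Adcy3 and Gnb1, the beta subunit, were among those 4, with changes of 0.00 and 0.04.

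The 3 chaperones that carry odorant receptors to the cell surface all rose, Rtp1 by 6.31, Rtp2 by 3.88 and Reep1 by 3.01 on the log2 scale. Of 13 regulators of receptor choice 5 were called higher and 7 lower. The counts were 6 and 6 with RLE size factors, DESeq2 or library size alone, and 6 and 7 with RSEM expected counts. Lhx2 (5.56), Ebf2 (3.30) and Emx2 (2.78), transcription factors that bind receptor enhancers or promoters, were higher in mTEC hi. Ldb1 (-1.23), the partner of Lhx2 at those enhancers, Ebf4 (-1.27) and the demethylase Kdm1a (-0.81) were lower. Lbr, a nuclear envelope protein, changed by -0.22 and by 0.10 with library size alone. Of 6 genes of the olfactory neuron lineage 4 were called higher and 1 lower. Neurog1 (5.40), Gap43 (3.99) and Gng8 (3.52) were among those higher, and Neurod1 was not called. With RLE size factors, DESeq2 or library size alone 5 of the 6 were higher, and with RSEM expected counts 4. For comparison, 45.3% of all 26372 genes tested were called higher and 35.9% lower. Of these genes 5381 were higher by at least 8-fold.

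**Figure D5:**
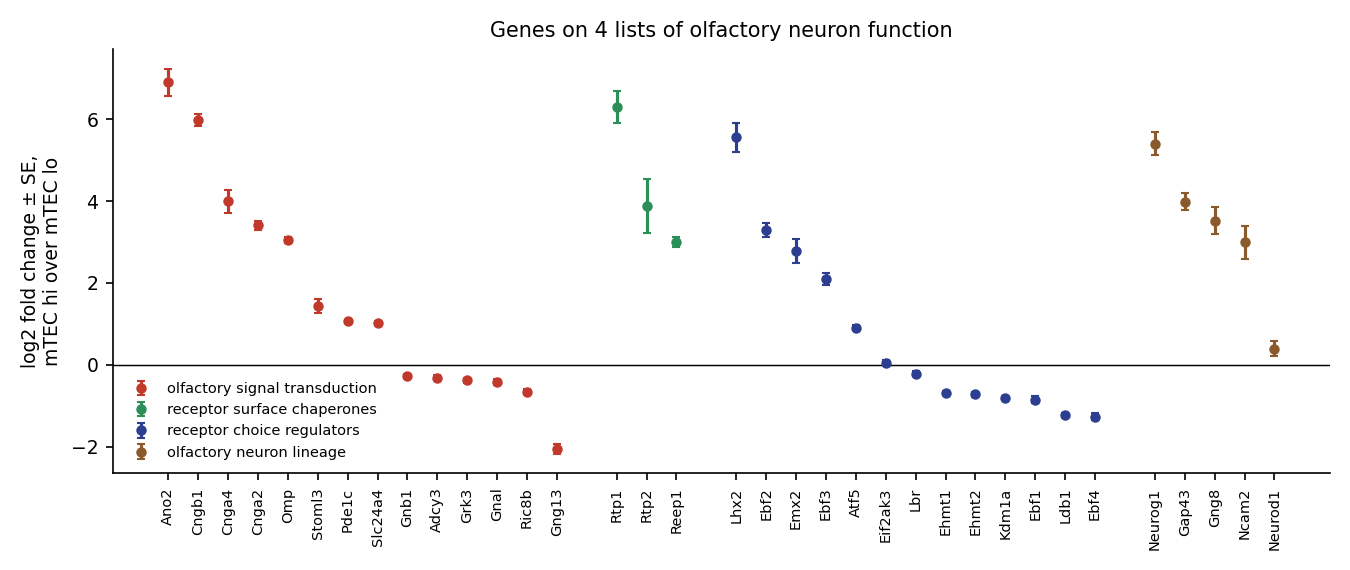
The log2 fold change of mTEC hi over mTEC lo with its standard error for genes on 4 lists of olfactory neuron function, ordered by size within a list; the 1 lineage gene called lower is not drawn. The channel genes, the chaperones and several transcription factors lie well above 0. Gnal, Gnb1, Gng13 and Adcy3, G protein and cyclase genes of the signal transduction list, lie below it. The G protein gene Gng8 of the lineage list lies above it.

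Markers of other cells moved between the same groups. Over all genes tested the shares called were 45.3% higher and 35.9% lower. B cell markers (6 of 6 called higher) summed to 68.1 to 73.0 CPM in mTEC hi, against 11.4 to 17.8 CPM in mTEC lo, and dendritic cell and macrophage markers (7 of 7) to 472 to 515 CPM and 32.8 to 59.8 CPM. Thymocyte markers (5 of 8) summed to 161 to 283 CPM in mTEC hi, against 44.0 to 109 CPM in mTEC lo. With DESeq2 5 of them were called higher, with RLE size factors or RSEM expected counts 6, and with library size alone 8. The 4 erythroid markers found in the tables, all higher, summed to 16.1 to 18.8 CPM in mTEC hi, against 1.27 to 4.23 CPM in mTEC lo. Of 6 fibroblast and endothelial markers 2 were higher and 2 lower, with sums of 157 to 171 CPM in mTEC hi, against 37.9 to 54.1 CPM in mTEC lo. The counts were 3 and 2 with RLE size factors or DESeq2, 3 and 1 with library size alone, and 2 and 1 with RSEM expected counts. No marker on these lists was without a read in either cell type. Their part in the receptor reads was not tested.

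Between Psmb11-deficient and WT libraries no receptor was called in either cell type. In mTEC hi the edgeR test called 0 of 274 receptors tested, against 1 of all 26642 genes (0.00375%), which was lower. At an unadjusted p below 0.05 it gave 2 receptors (0.730%), against 918 genes (3.45%), and DESeq2 called 0 receptors. The lowest unadjusted p values were those of Olfr1537 above and Olfr1034 below. Olfr1537 had 0.205 and 0.171 CPM in the deficient libraries, against 0 and 0.0466 CPM in the WT libraries. Olfr1034 had 0.0789 and 0.0857 CPM in the deficient libraries, against 0.328 and 0.233 CPM in the WT libraries. Both pairs lie apart, but on few reads, and the edgeR adjusted p was 1 for each. The exon of Olfr1034 overlaps that of Olfr1035-ps1 by 44 bases.

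In mTEC lo 0 of 274 receptors were called, against 4 of 26642 genes (0.015%), 1 higher (0.00375%) and 3 lower (0.0113%). The unadjusted p was below 0.05 for 12 receptors (4.38%), against 3010 genes (11.3%), and DESeq2 called 0 receptors. Olfr31 had the lowest p of those above, with 0.111 and 0.141 CPM in the deficient libraries, against 0 and 0.0187 CPM in the WT libraries, and its exons overlap those of Gm48860 by 951 bases. Olfr420 had the lowest p of those below, with 0.0632 and 0.0528 CPM in the deficient libraries, against 0.269 and 0.562 CPM in the WT libraries (edgeR adjusted p = 0.276). Olfr461 had 18.3 and 21.1 CPM in the deficient libraries, against 25.6 and 32.2 CPM in the WT libraries, with a log2 fold change of -0.56 and an edgeR adjusted p of 0.280.

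The difference between the genotype effects in mTEC hi and in mTEC lo was called for 0 of 274 receptors and for 0 of 26642 genes (0%). At an unadjusted p below 0.05 it gave 7 receptors (2.55%), against 1174 genes (4.41%), and DESeq2 called 0 receptors. The lowest p values among receptors were those of Olfr1393 above (5.21 on the log2 scale) and Olfr1034 below (-3.43), with edgeR adjusted p values of 0.9998.

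The level of some receptors depends on the counting. Olfr77, on chromosome 9, had 58 reads, 43 of them in 1 library of mTEC hi with conflicting labels and none in mTEC lo. The authors' RSEM estimate for it was 9632 expected counts over the 12 libraries, with 3.15 to 5.31 TPM in each library of both cell types. Its exons overlap those of the predicted gene Gm7808 by 387 bases. Its place among the highest receptors by TPM rests on that estimate. Over the 319 receptors the ratio of expected counts to reads had a median of 0.432, against 0.507 to 0.535 for whole libraries. Olfr77 was the only receptor above 1, and 19 receptors lay below 0.25, the lowest at 0.00962.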

How the data were processed

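RNA of 6 mTEC hi and 6 mTEC lo libraries was analysed. Per the labels, TRIzol and RNeasy extraction was followed by TruSeq library preparation from polyadenylated RNA. The authors deposited whole-number read counts per gene, not normalised, with a column that ignores strand, and the expected counts and TPM of RSEM per gene. The submitters' processing notes name CASAVA 1.8.2, STAR 2.5.1b, RSEM 1.2.28 and the build GRCh38, although the identifiers are mouse genes. Their annotation, not given in the sources used here, may differ from the one used for names. The first of the strand columns held a share of 0.504 to 0.508 of the stranded reads, so the column without strand was used.

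Of 50600 identifiers 50376 matched GENCODE M21 by stable identifier, 45737 with the same version, and coordinates are those of GENCODE M21. The receptor set, the lists of genes and the naming rule were chosen with earlier results of these data known. The rule takes the 10 receptors of highest mean TPM, the 5 largest rises and falls among called receptors with the same sign in all 6 pairs of libraries with matching titles, receptors with a named ligand or role, the lowest p in each genotype comparison, and those next to the read minimum.

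Genes with low counts were removed by filterByExpr (minimum count 10, minimum total 15), and TMM scaling was followed by the quasi-likelihood F test of edgeR 4.0.16 in R 4.3.3, with Benjamini-Hochberg adjustment over all genes tested and a threshold of 0.05. Cell types were compared over 12 libraries, with a covariate for genotype class (8 residual degrees of freedom), genotypes over the 8 libraries whose labels agree (4 residual degrees of freedom). A standard error is the log2 fold change divided by the square root of F. Libraries were thinned to the smallest total of 38791960 reads for counts of genes. A bound uses 3 reads over the group and covers counting error only. The fits were tested on simulated data. Some genes and sequences are not reported here. Alternatives were RLE size factors, library size alone, DESeq2 1.42.0, no filter, rounded RSEM expected counts, a replicate block, the 8 libraries, a 1.5-fold minimum, genotype from title or source name, other read minimums, and leaving out each library.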

Additional observations from a re-analysis of the deposited data

Results flagged for a closer look

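In 7 of 46 groups of 6 libraries that were examined, 1 library lay far from the other 5. Chance alone flags about 1 in 20 such groups if values are normally distributed. That rate does not hold for groups with few reads, so the 7 cannot be read as an excess. In mTEC hi, conflicting library 1 was the far one for 3 receptors. It had 2.04 CPM of Olfr760-ps1, with 1.02 to 1.35 CPM in the other mTEC hi libraries, 1.88 CPM of Olfr558, with 0.927 to 1.22 CPM in the others, and 1.65 CPM of Olfr1393, with 0.652 to 0.986 CPM in the others. The same library held the highest value of 90 of the 319 receptors, against 32 to 71 in the other mTEC hi libraries. Conflicting library 3 had 0.449 CPM of Olfr77, with 0 to 0.135 CPM in the others, and the Psmb11-deficient library 1 had 2.26 CPM of Olfr324, with 0.888 to 1.26 CPM in the others. In mTEC lo, conflicting library 1 had 0.0564 CPM of Olfr160, with at most 0.0187 CPM in the others, and 0.0188 CPM of Olfr1428, which had no read in the others. Olfr160 had 4 reads in mTEC lo in all and Olfr1428 had 1. A read in only 1 of 6 libraries is always flagged.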

How the results depend on the processing

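Of 21 named receptors with a test, 16 kept direction and call under every alternative that gave them a test. Of these, Olfr1034, Olfr160, Olfr31, Olfr420 and Olfr530 had none with RSEM expected counts, and Olfr530 none with the 8 libraries. The count of receptors higher in mTEC hi was 253 of 274 tested. It lay between 265 and 286 with each library left out, where more receptors passed the filter, 289 to 310. With the replicate block it was 285 of 308 tested, and 2 were lower. With RSEM expected counts, which leave 142 receptors tested, it was 128, and 4 were lower: Olfr461, Olfr901, Olfr536 and Olfr77. The count of lower receptors was 1 with library size alone and with a 1.5-fold minimum, and 1 to 2 with each library left out; the lost call was that of Olfr901. With the 8 libraries of undisputed genotype 2 were lower, Olfr461 and Olfr258-ps1. The log2 fold change of Olfr56, never called, lay between -0.05 and 0.10 with each library left out. Without mTEC hi deficient library 1, mTEC hi WT library 3, mTEC lo conflicting library 1 or mTEC lo WT library 2 it was -0.02, -0.03, -0.0045 and -0.0489.

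With library size alone the median log2 fold change of all genes was 0.48, against 0.16 with TMM, and 69.4% of called genes were then higher, against 55.8%. For genotype in mTEC lo, 1 receptor was lower without the filter (Olfr461, edgeR adjusted p = 0.0166) and 1 without mTEC lo deficient library 1 (Olfr1372-ps1, edgeR adjusted p = 0.0163), with 0 to 1 when each library was left out. The replicate block called 0 for each genotype comparison. The titles were not taken to pair libraries. Libraries of the 2 cell types with the same number and genotype in the title correlated by 0.00735 to 0.0939 in their deviations from the cell type mean. In 3 of 6 pairs the matching mTEC lo library correlated best among the 6. This check does not decide whether the libraries are paired. The mean number of receptor genes per thinned library was 734 in mTEC hi and 121 in mTEC lo at 1 read or more, and 207 and 25.5 at 10 reads or more. The causes of these changes were not tested.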

Other observations

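The 1086 receptor genes below the read minimum had 10939 reads in mTEC hi and 524 reads in mTEC lo, and 219 of these genes had no read.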
